A study of Mus musculus with 4 samples.

Results

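The genes described here are 10 members of the Wnt pathway, chosen by name with earlier results of these data known. They are the ligands Wnt2, Wnt5a and Wnt11, the secreted antagonists Sfrp1, Dkk1, Sost and Notum, and the target and feedback genes Axin2, Lef1 and Nkd1. They were found through the RefSeq accession of each probe and were read by 12 probes, out of 20881 named genes on the array. All 10 were bright enough in at least 1 group to enter the test of 20726 features. They were measured in cardiomyocytes grown from CGR8, a mouse embryonic stem cell line, on 4 Agilent 1-colour arrays of total RNA. There were 2 arrays of cells transfected with small interfering RNA to lower Erbb4 (siErbB4) and 2 of cells that received a scrambled RNA (siScr). Both groups had 48 hours of transfection with the Pepmute agent in medium with 2% serum, and no untransfected cells are in the series files used here. Erbb4 encodes a neuregulin receptor of the epidermal growth factor receptor family. The titles number the arrays of each group 1 and 2. Nothing in the labels says that the numbers stand for separate cultures, so the p-values rest on the spread among these 4 arrays alone, and that spread may be technical.

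Wnt ligands are lipid-modified secreted proteins that bind Frizzled receptors. In the canonical branch, with the co-receptors Lrp5 and Lrp6, they stabilise beta-catenin, which acts with transcription factors of the TCF and LEF family. In the non-canonical branch, ligands such as Wnt5a and Wnt11 act on cell polarity and movement without beta-catenin. In heart formation from stem cells canonical signalling is known to be needed early, for mesoderm, and to be held down later, when secreted antagonists such as Dkk1 favour the cardiac fate.

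Each level is the log2 of the processed signal less the 75th percentile of its array, named the scaled log2 level here. Levels are compared between arrays for 1 probe, not between probes. The 75th percentile lay between 878 and 989 signal units, and the scanner software called 64.8% to 68.5% of probes well above background. With 4 arrays, precision is limited by their number. All 15 listed cardiomyocyte markers were well above background on every array, Myh6 and Tnnt2 among them. The single Erbb4 probe gave 15.0 and 2.83 signal units in siErbB4 replicates 2 and 1, against 11.9 and 9.02 units in siScr replicates 2 and 1. It was well above background on siErbB4 replicate 2 only, so it does not check the knockdown. Directions are therefore those of the arrays labelled siErbB4 and siScr. Other label fields disagree with the titles: the scrambled RNA is named in the description of both siErbB4 samples, and ErbB5 in one of their source names. All arrays sat on 1 slide, the replicate 2 arrays at positions 1 and 2 and the replicate 1 arrays at positions 3 and 4, so position and replicate number cannot be told apart.

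The question between the groups was whether the arrays labelled siErbB4 differed from siScr in Wnt genes. None of the 10 members was called by limma at a Benjamini-Hochberg adjusted p under 0.05, where percent called over all features was 0% (0 of 20726). At an unadjusted p under 0.05 there was 1 member, Sost, against 1.76% of all features. Sost entered the test through its siScr arrays alone. Both its siErbB4 signals failed the scanner software's background flag, so its p is not read as evidence of a difference. The median log2 difference (siErbB4 minus siScr) was -0.20 over the members and -0.01 over all features tested, and 7 members were negative and 3 positive. The groups did not overlap at 2 members, Notum and Sost, beside 29.0% of all features. For Sost the siErbB4 signals were too dim to give more than a bound. Of the markers of other cells, all 14 fibroblast and matrix markers tested were negative between the groups (median log2 difference -0.53) and 7 of 8 pluripotency markers positive (median 0.49). All 5 endothelial (median -0.50), 5 macrophage (-0.42) and 5 smooth muscle markers tested (-0.20) were negative too. Endoderm markers were positive at 4 of 5 (median 0.25), and cardiomyocyte, epicardial and neural medians lay between -0.15 and -0.07. In every marker list 0 were called. Leaving out single arrays put the matrix median between -1.35 and 0.42, above 0 without siErbB4 replicate 2 or siScr replicate 1, and the pluripotency median between 0.22 and 0.70. The endothelial (-0.79 to -0.13), macrophage (-0.29 to -0.08) and smooth muscle medians (-0.41 to -0.02) stayed negative. Those of the other marker lists took both signs. With 1 array left in a group, the difference between the replicate numbers enters that between the groups. The part of these markers in the differences below was not tested.

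Among the ligands, Wnt5a, the best known activator of the non-canonical branch, had scaled log2 levels of 0.46 and 0.65 in siErbB4 replicates 2 and 1, against 0.50 and 0.58 in siScr replicates 2 and 1. The groups overlapped, and the log2 difference was 0.01 (standard error, SE, 0.15; 95% interval -0.39 to 0.41). Wnt11, a non-canonical ligand used in heart development, had levels of -2.68 and -2.51 in siErbB4 replicates 2 and 1, against -2.58 and -1.97 in siScr replicates 2 and 1. The groups overlapped and siScr replicate 1 was the highest array. The Wnt11 log2 difference was -0.32 (SE 0.26, 95% interval -1.02 to 0.39). Wnt2, a ligand expressed in early heart mesoderm, had levels of -3.67 and -3.20 in siErbB4 replicates 2 and 1, against -3.30 and -3.18 in siScr replicates 2 and 1. Its log2 difference was -0.19 (SE 0.21, 95% interval -0.77 to 0.39), and siErbB4 replicate 2 was the lowest array. The 3 ligands were well above background on all 4 arrays.

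Among the antagonists, Notum encodes a secreted enzyme that removes the lipid from Wnt proteins. Its scaled log2 levels were 0.86 and 0.87 in siErbB4 replicates 2 and 1, against 1.13 and 1.21 in siScr replicates 2 and 1. Both siErbB4 arrays were below both siScr arrays, as at 15.9% of all features. The log2 difference was -0.30 (SE 0.13, 95% interval -0.66 to 0.05) and was not called (limma p 0.0772 before and 1.00 after Benjamini-Hochberg adjustment). Sost encodes sclerostin, which binds Lrp5 and Lrp6 and blocks the canonical branch. It gave only 2.26 and 2.6 signal units in siErbB4 replicates 2 and 1, against 14.7 and 12.8 units in siScr replicates 2 and 1. By the scanner software's flag, neither siErbB4 reading was well above background and both siScr readings were. Sost therefore has only a bound by that flag, without an error estimate: at least 1.39-fold lower in siErbB4 than in siScr. By a second rule, 2.6 pixel standard deviations over local background, siScr replicate 2 alone was above background. The bound sets the siScr mean of -6.08 (scaled log2 level) against -6.56, and the measured siErbB4 mean of Sost was -8.60. The -6.56 is the mean of the lowest signals of any probe called well above background on the siErbB4 arrays. It is not a detection limit of the Sost probe. The limma adjusted p of Sost was 0.947, and with normexp background correction, which shrinks the differences of dim probes, its log2 difference was -0.28. That is smaller than the bound, so the bound does not hold with that correction.

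Sfrp1 encodes a decoy that binds Wnt proteins outside the cell, and Dkk1 a secreted blocker of Lrp5 and Lrp6. Sfrp1 had scaled log2 levels of -0.28 and -1.43 in siErbB4 replicates 2 and 1, against -0.18 and -1.12 in siScr replicates 2 and 1. Dkk1 had levels of -3.92 and -3.39 in siErbB4 replicates 2 and 1, against -4.56 and -3.19 in siScr replicates 2 and 1. For both genes the 2 arrays of a group lay further apart than the group means. The log2 differences between the groups were -0.21 for Sfrp1 (SE 0.54, 95% interval -1.69 to 1.28) and 0.22 for Dkk1 (SE 0.53, 95% interval -1.24 to 1.68).

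The target genes showed the same layout. Axin2, a scaffold of the beta-catenin destruction complex and the most widely used readout of canonical signalling, had scaled log2 levels of -2.14 and -1.46 in siErbB4 replicates 2 and 1, against -2.44 and -1.49 in siScr replicates 2 and 1. Lef1, a transcription factor that pairs with beta-catenin and is itself a target, had levels of -2.48 and -1.56 in siErbB4 replicates 2 and 1, against -2.37 and -1.20 in siScr replicates 2 and 1. Nkd1, a feedback inhibitor that binds Dishevelled, had levels of -2.02 and -1.73 in siErbB4 replicates 2 and 1, against -2.18 and -1.45 in siScr replicates 2 and 1. In all 3 genes the replicate 1 arrays were high and the replicate 2 arrays low, and siErbB4 lay inside the range of siScr or overlapped it. The log2 differences between the groups were 0.16 for Axin2 (SE 0.43, 95% interval -1.03 to 1.35), -0.23 for Lef1 (SE 0.54, 95% interval -1.72 to 1.25) and -0.06 for Nkd1 (SE 0.30, 95% interval -0.90 to 0.77). These intervals come from the fit without the replicate number. Leaving out single arrays turned the sign of 7 members, all but Wnt11, Notum and Sost. With 1 array left in a group, the difference between the replicate numbers enters that between the groups. Between same-numbered arrays, siErbB4 minus siScr had the same sign in both numbers for Wnt2, Axin2, Lef1 and Sfrp1. It had opposite signs for Wnt5a, Nkd1 and Dkk1.

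**Figure D1:**
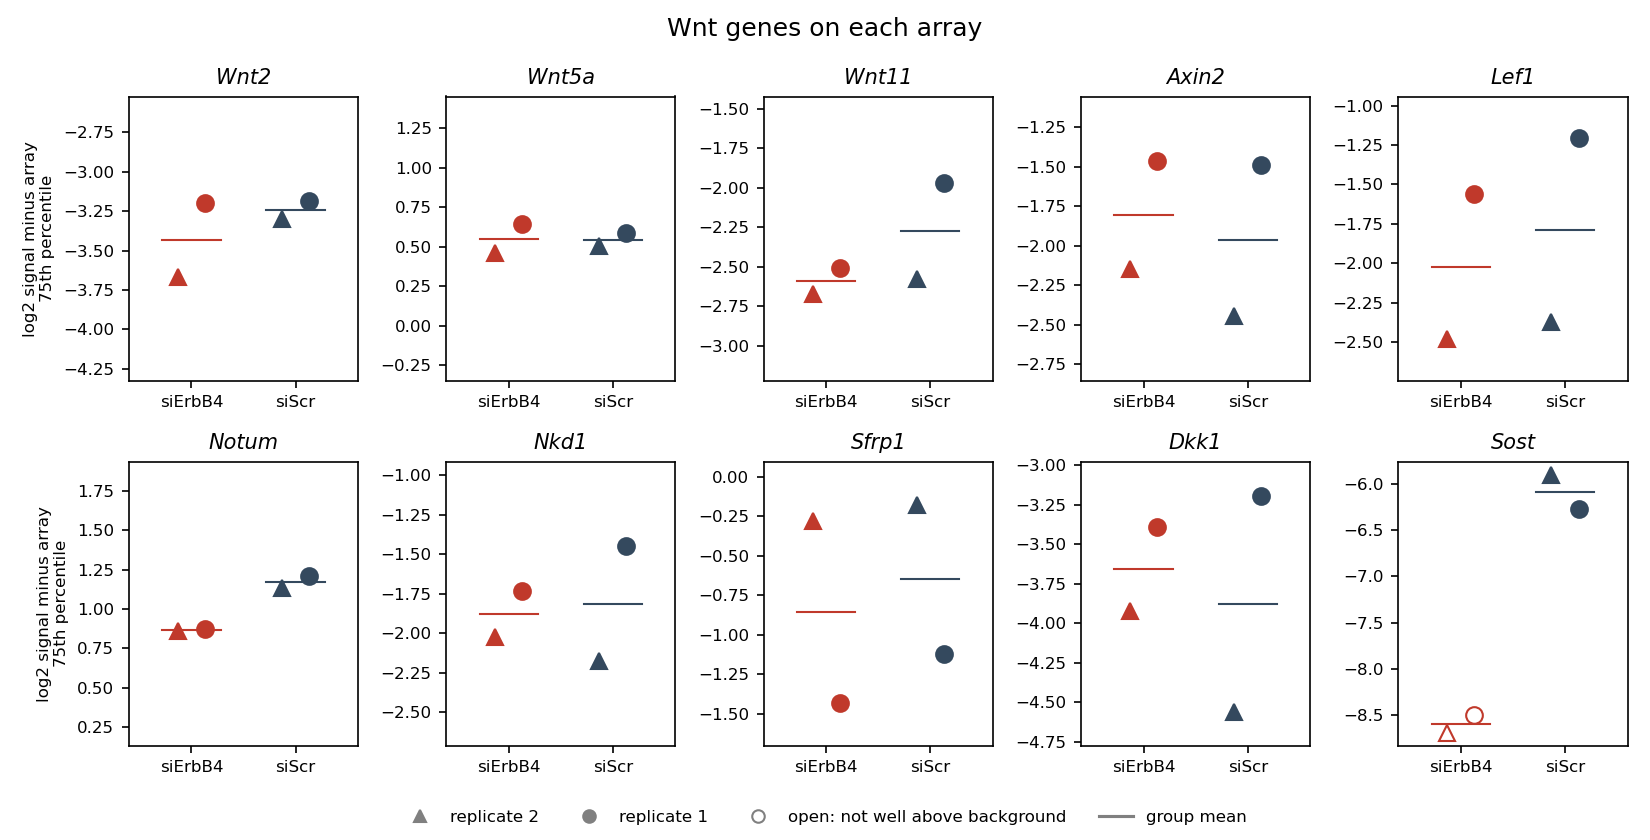
Scaled log2 level (log2 signal less the 75th percentile of the array) of the 10 Wnt genes on each array, siErbB4 in red and siScr in blue, triangles for replicate 2 and circles for replicate 1. Short lines are group means and open symbols were not well above background. Axin2, Lef1, Nkd1 and Dkk1 lie lower, and Sfrp1 higher, on both replicate 2 arrays than on both replicate 1 arrays.

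The replicate numbers were compared on the same values, but with the group as a term in the fit. The fit between the groups had no replicate term and kept the difference between the numbers in its error, so the 2 fits are not alike. With a replicate term, 0 features were called between the groups too. Between replicate 2 and replicate 1, Axin2 and Lef1 fell and Sfrp1 rose, in siErbB4 and in siScr alike. These 3 of 10 members were called by limma at a Benjamini-Hochberg adjusted p under 0.05, where percent called over all features was 7.31% (1516 of 20726). In direction, 2 members were lower, beside 3.55% of features, and 1 was higher, beside 3.76%. The median log2 difference (replicate 2 minus replicate 1) was -0.34 over the members and 0.02 over all features. Replicate 2 and replicate 1 arrays did not overlap at 8 members, beside 55.4% of all features. Sfrp1 was higher and the others were lower in replicate 2, as 26.0% of all features were.

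Lef1 was lower by 0.92 on the log2 scale in siErbB4 and by 1.17 in siScr, replicate 2 against replicate 1. Its fitted log2 difference was -1.05 (SE 0.13, 95% interval -1.39 to -0.70, adjusted limma p 0.0284), or 0.485 times the replicate 1 level. Axin2 gave -0.68 in siErbB4 and -0.96 in siScr, and -0.82 fitted (SE 0.13, 95% interval -1.18 to -0.46, adjusted limma p 0.0433). A second, dimmer Axin2 probe gave -0.75 between the replicate numbers and -0.07 between the groups. Sfrp1 gave 1.15 in siErbB4 and 0.95 in siScr, and 1.05 fitted (SE 0.12, 95% interval 0.71 to 1.39, adjusted limma p 0.0271), or 2.07 times the replicate 1 level.

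Dkk1 had a log2 difference of -0.95 between replicate 2 and replicate 1 (SE 0.23, adjusted limma p 0.0931), from -0.53 in siErbB4 and -1.37 in siScr, which did not pass the threshold. Nkd1 gave -0.51 (SE 0.16, adjusted limma p 0.140), and its dimmer probe gave -0.39. Of the ligands, Wnt11 gave -0.39 (SE 0.16), Wnt2 -0.29 (SE 0.14) and Wnt5a -0.13 (SE 0.12), with both replicate 2 arrays below both replicate 1 arrays for each. Notum gave -0.05 (SE 0.11, 95% interval -0.36 to 0.26). Sost is not read here, since it was dim on both siErbB4 arrays. Wnt5a and Notum had the narrowest ranges over the 4 arrays among the members, 0.188 and 0.349 on the log2 scale, and Dkk1 the widest among those well above background on all 4 arrays, at 1.37.

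The calls depended on the processing. With all 4 arrays and no group term, Axin2 was not called (adjusted limma p 0.0512), and with normexp Dkk1 was called in addition (log2 difference -0.41, adjusted limma p 0.0428). With no filter on dim probes, 0 features and 0 members were called, at the same log2 differences (adjusted limma p 0.297 for Axin2 and 0.276 for Lef1 and for Sfrp1). With 1 array left out and no group term, Lef1 and Sfrp1 were called without siErbB4 replicate 1, and 0 members were called without siErbB4 replicate 2, siScr replicate 1 or siScr replicate 2. The direction of Axin2, Lef1 and Sfrp1 was the same under all 11 alternatives, with log2 differences of -0.97 to -0.49 for Axin2, -1.22 to -0.83 for Lef1 and 0.87 to 1.21 for Sfrp1.

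**Figure D2:**
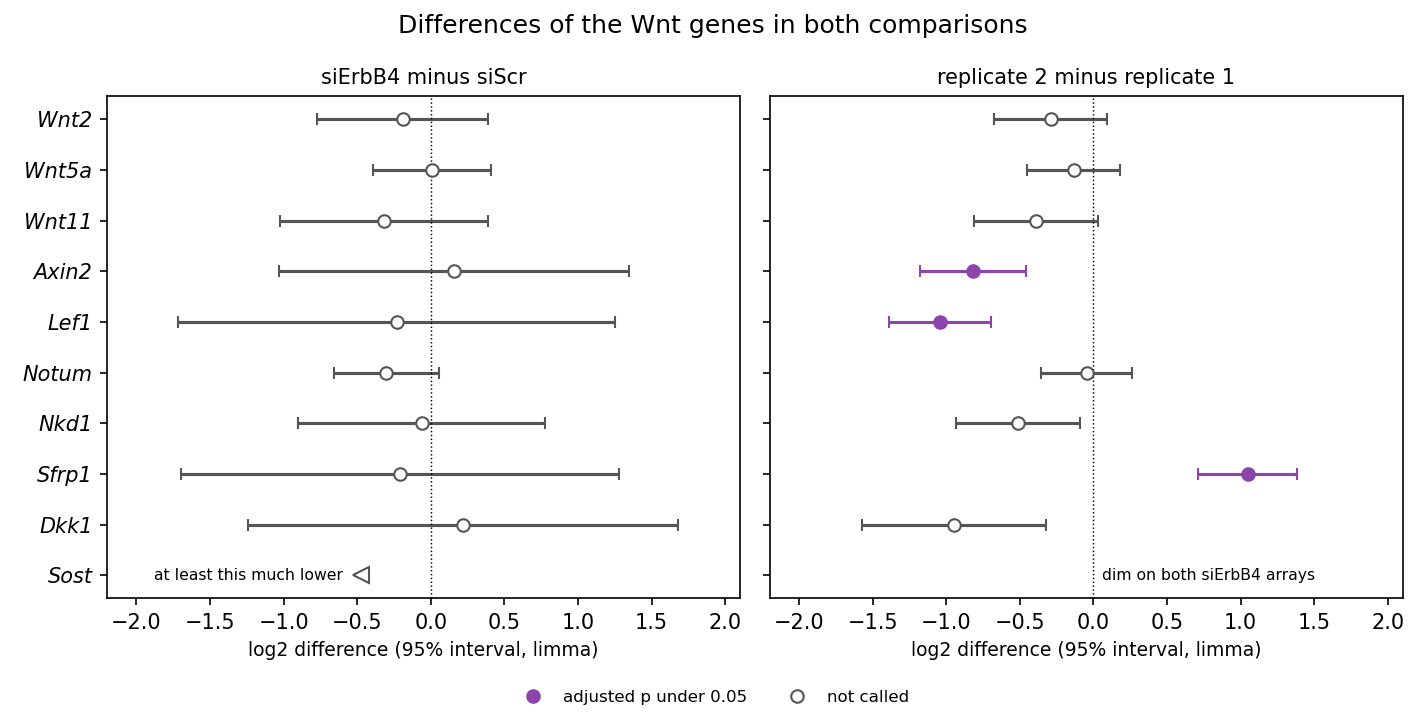
Log2 differences of the 10 Wnt genes, siErbB4 minus siScr on the left and replicate 2 minus replicate 1 on the right, with 95% intervals of limma's estimate. Filled points passed an adjusted p under 0.05. Sost has only a bound between the groups (at least 1.39-fold lower, by the scanner software's flag) and no value between the replicate numbers. With normexp background correction its log2 difference between the groups, -0.28, was smaller than that bound. No gene was called on the left, and Axin2, Lef1 and Sfrp1 were called on the right.

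Promoter sequence is shown for Lef1 and Axin2, called lower in replicate 2, and for Dkk1, lower but not called. Nkd1, Wnt2, Wnt5a and Wnt11 were lower on both replicate 2 arrays too and are not shown. TCF and LEF proteins bind near target genes at a motif whose core is CTTTGA. RefSeq sequence of build GRCm38.p6 was at hand for 7 of the 10 members, and the 250 bases before each start were searched on both strands for CTTTGA, which does not overlap with another motif searched. The letters occurred at 13.8% of the 32851 starts in the table, and at 3 of the 11 starts of these 7 members, from Dkk1, Lef1 and Wnt11. The Dkk1 window on the minus strand, chr19:30549497-30549746, held them on both strands, and the Lef1 window at its most downstream listed start, chr3:131156044-131156293 on the plus strand, held its reverse complement, TCAAAG, at a pair of places. The window of the most upstream Lef1 start, chr3:131110047-131110296, and that of Axin2, chr11:108920099-108920348, both on the plus strand, did not hold these letters. Nor did the windows of the Lef1 starts in between, or those of Nkd1, Wnt2 and Sost, none of which is shown. The windows shown are printed 5′ to 3′ on the gene's strand, with the motif in capitals.
Dkk1: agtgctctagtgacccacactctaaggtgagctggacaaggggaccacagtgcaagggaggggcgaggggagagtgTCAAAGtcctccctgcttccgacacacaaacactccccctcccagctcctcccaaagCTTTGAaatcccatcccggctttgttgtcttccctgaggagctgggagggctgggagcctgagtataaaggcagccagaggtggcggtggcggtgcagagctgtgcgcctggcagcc
Lef1, downstream start: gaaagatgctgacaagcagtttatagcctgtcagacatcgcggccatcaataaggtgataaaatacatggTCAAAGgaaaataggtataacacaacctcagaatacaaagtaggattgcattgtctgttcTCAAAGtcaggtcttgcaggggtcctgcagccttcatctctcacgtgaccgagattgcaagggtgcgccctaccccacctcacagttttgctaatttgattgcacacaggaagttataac
Lef1, upstream start: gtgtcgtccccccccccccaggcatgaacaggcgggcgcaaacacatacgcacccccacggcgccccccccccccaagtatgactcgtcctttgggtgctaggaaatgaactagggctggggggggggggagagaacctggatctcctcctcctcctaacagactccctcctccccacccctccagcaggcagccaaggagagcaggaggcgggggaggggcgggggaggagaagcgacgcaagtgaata
Axin2: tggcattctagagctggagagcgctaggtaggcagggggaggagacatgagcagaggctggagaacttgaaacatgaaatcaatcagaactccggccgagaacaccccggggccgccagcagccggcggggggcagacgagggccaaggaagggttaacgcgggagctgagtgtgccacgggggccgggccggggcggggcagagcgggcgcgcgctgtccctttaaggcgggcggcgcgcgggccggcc
A match is a description of the letters and no evidence of binding, and a window without them says nothing of sites elsewhere in the gene.

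The other genes of the pathway were taken from 7 lists of 115 distinct genes, of which 98 were bright enough to test. These lists, too, were chosen with earlier results of these data known. Between siErbB4 and siScr 0 of the 98 were called. Of the 98, 2 had an unadjusted limma p under 0.05, Sost and the ligand gene Wnt7a (log2 difference -0.54, SE 0.16). Over all features 1.76% had such a p. That of Sost rests on siErbB4 signals that failed the scanner software's background flag. The lists' median log2 differences, siErbB4 minus siScr, lay between -0.19 for antagonists and 0.04 for non-canonical genes. The sign depended on single arrays for all lists but receptors and antagonists. With 1 array left out the median lay between -0.45 and 0.12 for ligands, -0.32 and 0.23 for targets and -0.38 and 0.18 for agonists. It lay between -0.04 and 0.12 for transducers and -0.13 and -0.03 for non-canonical genes. For antagonists it lay between -0.29 and -0.01 and for receptors between -0.17 and -0.13. In such fits the difference between the replicate numbers enters that between the groups. The lowest p among receptors was that of Fzd7 (-0.31, SE 0.16), then of Fzd2 (-0.22, SE 0.14). Among the others, the ligand gene Wnt6 gave 0.70 (SE 0.40) and Csnk1a1, a kinase of the destruction complex, 0.37 (SE 0.17). The co-activator gene Pygo1 gave 0.69 (SE 0.39), the glypican gene Gpc4 -0.33 (SE 0.20) and Rspo3, a secreted agonist, 0.19 (SE 0.17). The target gene Myc gave 0.39 (SE 0.15), and the polarity pathway genes Daam2 and Fzd6 gave -0.32 (SE 0.16) and -0.36 (SE 0.23).

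Between replicate 2 and replicate 1 arrays, 20 of the 98 tested pathway genes were called, or 20.4% against 7.31% of all features, 18 of them lower and 2 higher in replicate 2. Of the 14 ligands tested, 5 fell and 0 rose (over all features, 3.55% called lower and 3.76% higher), with a list median of -0.36. Wnt10b, a canonical ligand, fell the furthest of these, with scaled log2 levels of -5.29 and -5.82 on the replicate 2 arrays of siErbB4 and siScr, against -3.07 and -3.36 on their replicate 1 arrays (log2 difference -2.34, SE 0.13). Its replicate 2 readings were dim: the lowest signals of any probe called well above background there were -6.68 and -6.19. Wnt4 gave -2.02 (SE 0.23), Wnt10a -1.92 (SE 0.31), Wnt3 -1.48 (SE 0.19) and Wnt9a, named after its values were seen, -0.96 (SE 0.12). Wnt10a passed the background flag on 3 arrays, all but siScr replicate 2. The 5 ligand genes Wnt2b, Wnt3a, Wnt8a, Wnt8b and Wnt9b were too dim to test.

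Of the 21 beta-catenin target genes tested, 6 fell and 0 rose in replicate 2, beside 3.55% of all features called lower and 3.76% higher. Of the 21, 19 were negative, and the median was -0.45, against 0.02 over all features. With no group term 3 targets were called, and with no filter on dim probes 0 were. Sp5, a transcription factor gene induced directly by canonical signalling, had levels of -2.77 and -2.88 on the replicate 2 arrays of siErbB4 and siScr, against -1.12 and -1.25 on their replicate 1 arrays (log2 difference -1.63, SE 0.11). The caudal homeobox gene Cdx1 gave -1.48 (SE 0.18) and the stem cell receptor gene Lgr5, which passed that flag on the same 3 arrays, -1.44 (SE 0.16). Lef1 and Axin2, given above, and Sp8, named after its values were seen (-0.89, SE 0.15), were the others. Of the early mesoderm and caudal targets, T, Cdx2, Cdx4 and Mesp1 were too dim to test, as was Fgf20.

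The antagonists split. Of 17 tested, 4 fell and 2 rose in replicate 2, beside 3.55% of all features called lower and 3.76% higher. With no group term 3 fell and 2 rose, and with no filter on dim probes 0 were called. Sfrp2, a decoy of the same family as Sfrp1, had levels of -2.39 and -2.55 on the replicate 2 arrays of siErbB4 and siScr, against -0.36 and 0.55 on their replicate 1 arrays, and Sfrp1 moved the other way. The log2 difference of Sfrp2 was -2.56 (SE 0.28), that of Frzb, another member of the family, -0.95 (SE 0.13), of Dkk2 -2.23 (SE 0.13) and of Igfbp4, an insulin-like growth factor binding protein that also blocks Wnt receptors, -1.60 (SE 0.21). Wif1, which binds Wnt proteins, rose with Sfrp1, with levels of -3.84 and -4.18 on the replicate 2 arrays of siErbB4 and siScr, against -5.76 and -5.96 on their replicate 1 arrays (log2 difference 1.85, SE 0.12). The replicate 1 readings of Wif1 were dim, where the lowest such signals of any probe were -6.44 and -6.72.

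Of the 16 receptors tested 1 fell, Fzd10 (-1.18, SE 0.14), and 0 rose, with a median of 0.07. Of 20 transducers 1 fell, Lef1 itself, with a median of -0.03, and Ctnnb1, which encodes beta-catenin, gave 0.20 (SE 0.11) and was named after its values were seen. Of 8 agonist and secretion genes 2 fell, Rspo1 (-0.97, SE 0.12), a secreted agonist, and its receptor Lgr5. Of 16 non-canonical genes 1 fell, the cadherin gene Celsr3 (-1.62, SE 0.21). The counts for receptors, transducers and non-canonical genes lie near the 7.31% of all features that were called. Whether the lists differed from each other was not tested. The adjusted limma p (Benjamini-Hochberg) of the called genes named here lay between 0.0209 and 0.0477.

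**Figure D3:**
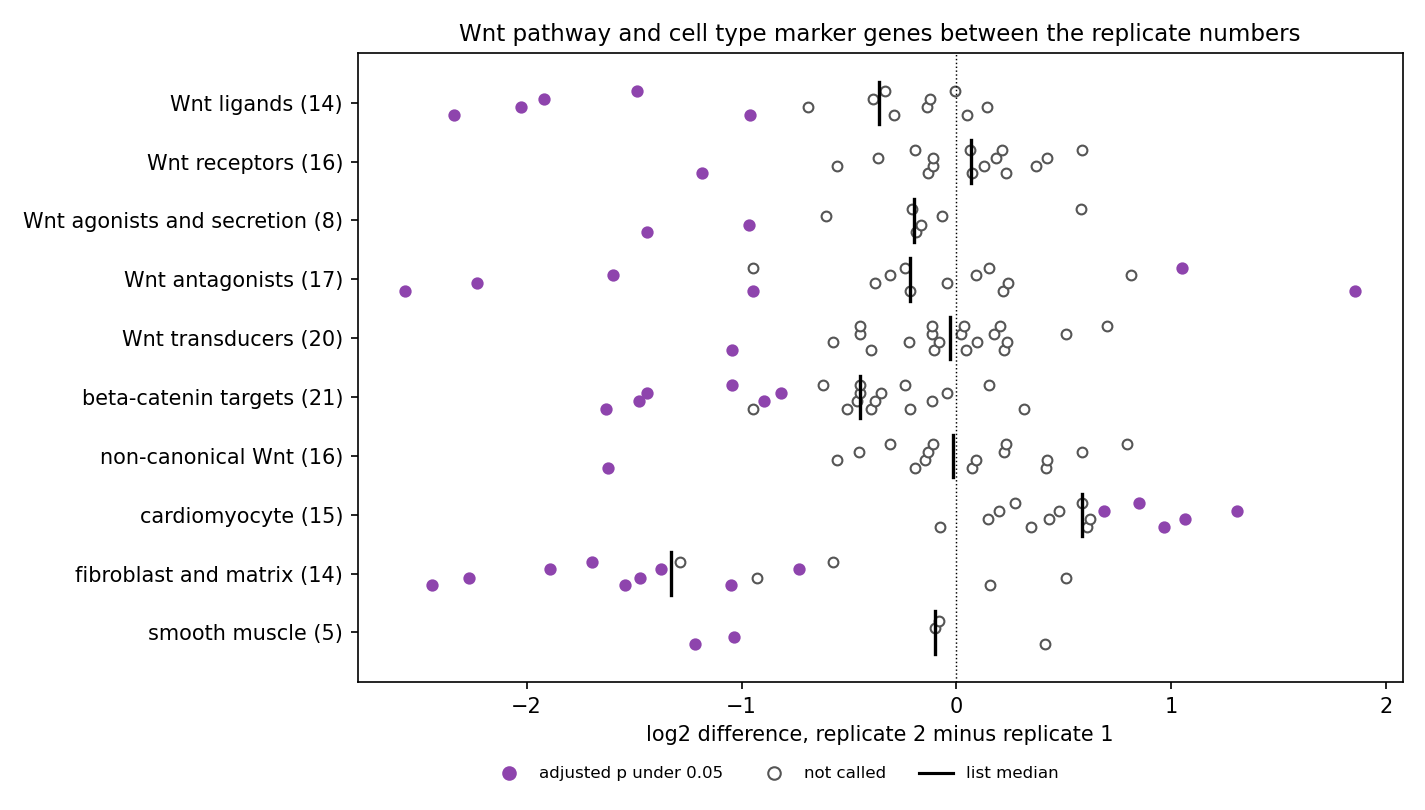
Log2 differences between replicate 2 and replicate 1 for each tested gene of the 7 Wnt lists and 3 marker lists, with the number tested in brackets. Filled points passed an adjusted p under 0.05 and black lines are list medians, from -1.33 for fibroblast and matrix markers to 0.58 for cardiomyocyte markers. Most called Wnt genes lie left of 0; Sfrp1 and Wif1 lie to the right.

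Markers of cell types moved with the same numbers. In bulk RNA fewer cells of a type and less RNA per cell cannot be told apart. Of the 14 fibroblast and matrix markers tested 9 fell in replicate 2 and 0 rose, with a median log2 difference of -1.33, and of 15 cardiomyocyte markers 5 rose and 0 fell, with a median of 0.58, beside 3.55% of all features lower and 3.76% higher. The summed level of the matrix markers, in multiples of the array's 75th percentile, was 33.5 and 36.3 on the replicate 2 arrays of siErbB4 and siScr, against 77.7 and 102.9 on their replicate 1 arrays. That of the cardiomyocyte markers was 2155 and 2345 on the replicate 2 arrays, against 1620.0 and 1689 on the replicate 1 arrays. Smooth muscle markers had 2 of 5 called lower (summed level 243.7 and 251.2 on the replicate 2 arrays, against 431.5 and 544.7 on the replicate 1 arrays). A sum is weighted to the brightest genes, and the smooth muscle median was only -0.10 (0.10 in siErbB4 and -0.40 in siScr). With 1 array left out and no group term that median lay between -0.36 and 0.11. Endoderm markers had 2 of 5 called higher (summed level 53.4 and 47.6, against 50.1 and 40.8), with a median of 0.65. Of epicardial markers 2 of 5 fell, of endothelial and neural markers 1 of 5 each fell, of macrophage markers 1 of 5 rose, and of pluripotency markers 0 of 8 were called. Without the group term 5 matrix, 1 endoderm, 0 epicardial, 0 endothelial and 0 neural markers were called. Tcf21, Myh11, Alb and Apoa1 were not bright enough to test. Of the 6 endothelial and 6 neural markers with a probe, 5 each were bright enough, and 5 of 6 macrophage markers had a probe. The part of these markers in the Wnt differences was not tested.

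For Dkk1, the member with the widest range among those well above background on all 4 arrays, the profiles nearest to its own among 14993 named genes were those of Ecel1, Scel, Tcstv1, Esam and Ackr3. Their root mean square difference from Dkk1, after each profile was centred on its mean, was 0.0398, 0.0451, 0.0514, 0.0621 and 0.0636 on the log2 scale, over 4 arrays.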

How the data were processed

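Per the labels' protocols, each labelling used 200 ng of RNA and 1 dye. The submitters' processing notes give Agilent Feature Extraction 10.7.1.1 as the scanner software. The deposited processed intensity is background-subtracted and detrended within the array, per the file headers. The authors' deposited log2 table equalled log2 processed intensity minus the array's 75th percentile to within 0.00291, so its scale and direction are known. Its column medians were -3.86, -3.84, -3.83 and -3.81 for siErbB4 replicates 2 and 1 and siScr replicates 2 and 1.

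Control and outlier-flagged spots were left out and spots of a probe averaged. A probe was kept where both arrays of some group were well above background (25690 of 39417), and a gene was read from its brightest kept probe. Names came from unversioned RefSeq accessions (GRCm38.p6; 27498 probes named). The array's own annotation names another build. limma 3.58.1 in R 4.3.3 was fitted to all 20726 features (two-sided, Benjamini-Hochberg, threshold 0.05), with 2 residual degrees of freedom between the groups and 1 between the replicate numbers. The fits were tested on simulated data with independent arrays, which does not cover a deviation shared by same-numbered arrays. Alternatives were quantile normalization, normexp (offset 50), other filters, the mean of a gene's probes, the deposited table, the replicate block, no group term and leaving out arrays. The smallest two-sided p of an exact permutation test here (2 against 2) is 0.333. The members and lists were chosen with earlier results of these data known. Of each list the text names all members, the 2 genes with the lowest p between the groups and up to 4 called genes per direction between the replicate numbers, and others are said to be named after their values were seen.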

Additional observations from a re-analysis of the deposited data

Results flagged for a closer look

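For Sost, replicate 2 minus replicate 1 had opposite signs in the groups, -0.19 on the log2 scale in siErbB4 and 0.37 in siScr. Neither siErbB4 reading was well above background, so the siErbB4 sign gives no direction, and the difference was not tested.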

How the results depend on the processing

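Between siErbB4 and siScr, 0 features, 0 members and 0 genes of the wider pathway were called under each of the 11 alternatives run. With the replicate block, 0 features were called in that comparison, and 1546 had an unadjusted p under 0.05, against 365 without it. The deviations of same-numbered arrays from their group means correlated at 0.67 across probes, but there are only 2 pairs, the labels do not say what a number marks, and it coincides with slide position. The blocked 95% intervals were -0.20 to 0.52 for Axin2, -0.58 to 0.11 for Lef1, -0.54 to 0.13 for Sfrp1 and -0.41 to 0.84 for Dkk1. The sign turned with normexp for Wnt5a (-0.0146). With arrays left out in turn it turned for Wnt2 (-0.42 to 0.0414), Wnt5a (-0.0853 to 0.10), Axin2 (-0.32 to 0.64), Lef1 (-0.82 to 0.35), Nkd1 (-0.43 to 0.30), Sfrp1 (-0.78 to 0.37) and Dkk1 (-0.46 to 0.90), where a lone array is assumed to vary like the other group. There the difference between the replicate numbers also enters that between the groups. Between the replicate numbers, leaving out an array also meant dropping the group term. Dropping that term alone, with all 4 arrays, gave 1084 features, 2 members and 15 genes of the wider pathway, against 1516, 3 and 20. With an array left out as well, the counts were 0 to 1539 features, 0 to 2 members and 0 to 18 pathway genes. No filter on dim probes gave 0 of each, and normexp gave 2882 features. Without siErbB4 replicate 2, 72 features were called. In these fits, where the difference between the groups enters that between the numbers, the sign turned for Notum (-0.21 to 0.12; 0.0909 without siErbB4 replicate 2) and Sost (-1.31 to 1.49; -1.03 without siErbB4 replicate 1), and the Sost values rest on siErbB4 readings that were not well above background. Of the 1516 calls, 1318 were shared with quantile normalization and 1285 with normexp. The causes were not tested. Of 48 member readings (12 probes on 4 arrays), 46 were well above background by the scanner software's flag and 42 by 2.6 pixel SD over local background. The dim probes of Sost and Erbb4 are limited by signal over background.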
